A study of Triticum aestivum and Aegilops tauschii and Triticum carthlicum with 33 samples.

Results

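XX329 is a hexaploid wheat made anew from Extracted-tetra, its mother, and the Aegilops tauschii line TQ18, and TAA10 is a natural bread wheat. Leaf transcripts of XX329 (3 arrays) were compared with those of TAA10 (3 arrays), 6 of the 33 arrays of the series, chosen by line name alone. The design text of the study describes Extracted-tetra as a tetraploid whose BBAA genomes were taken out of a common wheat by crossing to a durum line and repeated backcrossing. TAA10 is the natural common wheat among the groups. The labels do not name the donor, and both hexaploids are taken here to share nearly the same BBAA genomes. The comparison then sets the D genome of TQ18 against the D genome of bread wheat. It also takes in whatever the extraction changed in BBAA, and the arrays of XX329 and TAA10 do not separate these.

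The other groups used here had 3 arrays each as well. They were XX329 mix (2 parts Extracted-tetra RNA to 1 part TQ18 RNA), the parents Extracted-tetra and TQ18, the synthetic hexaploid Allo-960S7 from Blackbird and the Aegilops tauschii line 30A, its parental RNA mix (2 parts to 1), 30A itself, and the tetraploids TTR13 (durum wheat), TD265 (wild emmer) and Blackbird (subspecies carthlicum). Plants of every line were kept in chambers at 24 °C in the light (16 h a day) and 20 °C in the dark. The labels call the arrays biological replicates and do not say whether each came from a plant of its own, so the p-values measure spread between arrays. For each probe set that spread was estimated within groups over all 33 arrays. An SE or p-value can thus differ from what the XX329 and TAA10 arrays alone would give.

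Bread wheat carries 3 related genomes, named A, B and D. The D genome came from Aegilops tauschii by a hybridisation in which few plants took part, and wild lines of that grass hold many alleles that bread wheat lacks. In a hexaploid most genes exist as homoeologs, one in each genome, and a probe set on this array can take up the signal of one homoeolog or of all. A low value can therefore mean little transcript or a transcript that the probes match poorly.

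Values are the deposited expression summaries on a log2 scale, and all differences are XX329 minus TAA10 on that scale. The median of all values was 4.43, and a fold that starts below it is not secure, since background was not measured. The 3′ minus 5′ actin difference, a measure of RNA quality, was -0.406 ± 0.182 in XX329 and -0.464 ± 0.187 in TAA10 (mean ± SD, n = 3 each). The same measure for GAPDH was -2.37 ± 0.0939 in XX329 and -2.6 ± 0.0773 in TAA10 (n = 3 each) and did not overlap between the lines, and its part in the results was not tested. The mean of the hybridisation controls was 9.76 ± 0.0997 in XX329 and 9.5 ± 0.0592 in TAA10 (n = 3 each), higher in every XX329 array; the part of this offset in the results was not tested beyond the centring given below. Arrays correlated across probe sets with r of 0.9792 to 0.9887 within XX329, 0.9885 to 0.9948 within TAA10 and 0.978 to 0.985 between the lines. Replicate 3 of XX329 had the lowest array weight of the 6 (0.348), and without it 2419 probe sets were called in place of 1311, so the main counts are given below with and without it.

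Between the hexaploids, 1311 of 61179 probe sets (2.14%) were called at an adjusted p under 0.05 in limma. Of these, 499 (0.816% of those tested) were higher and 812 (1.33%) lower in XX329. A difference of at least 2-fold was reached by 570 (0.932%), and at least 4-fold by 58 higher (0.0948%) and 143 lower ones (0.234%). For 1255 called probe sets (2.05%) the XX329 and TAA10 arrays did not overlap. The median difference over all probe sets was 0.01. Without XX329 replicate 3, 1126 of the 2419 were higher and 1293 lower, and 1127 of the 2419 were among the 1311. A difference of at least 2-fold was then reached by 849, and at least 4-fold by 80 higher and 156 lower ones. Centring the arrays on the hybridisation controls moved the median of all differences to -0.25 and left 7.94% of 2079 calls higher, in place of 38.1%. Without TAA10 replicate 3, 89 probe sets were 4-fold or more higher, in place of 58.

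**Figure D1:**
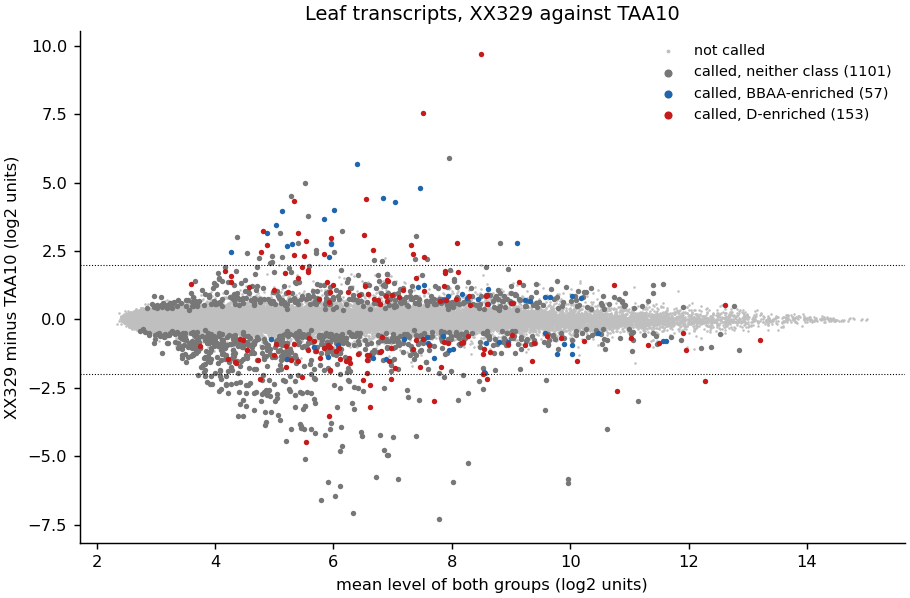
Difference between XX329 and TAA10 (vertical, log2 units) against the mean level of both lines (horizontal, log2 units) for 61179 probe sets. Points in colour are called probe sets of the D-enriched (153, red) and BBAA-enriched (57, blue) classes, dark grey the other 1101 called, and the dotted lines mark 4-fold; more points lie below the lower line (143) than above the upper one (58).

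The share of calls was next read for probe sets that mark the D genome or the BBAA genomes. A probe set was counted as D-enriched when both TQ18 and 30A exceeded each of TTR13, TD265 and Blackbird by 4-fold or more with a call in every pair, and as BBAA-enriched when they fell short by as much. None of these lines is XX329 or TAA10. Of 1557 D-enriched probe sets, 153 (9.83%) were called, 69 higher and 84 lower in XX329, against 2.14% of all probe sets. Of 1941 BBAA-enriched probe sets, 57 (2.94%) were called, 30 higher and 27 lower. The remaining 57681 had 1101 calls (1.91%).

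The D-enriched class shifted in neither direction as a whole. Its median difference was 0.01 and that of the BBAA-enriched class -0.01, while the SD over probe sets was 0.685 for D-enriched, 0.446 for BBAA-enriched and 0.316 for all. Both classes lay well above the array medians, with median levels of 6.94 in XX329 and 6.95 in TAA10 for D-enriched, and 7.99 in XX329 and 8.02 in TAA10 for BBAA-enriched. Probe sets are not replicates, so these shares are descriptions and their difference was not tested. Leaving out single arrays gave shares of 7.64% to 14.5% for D-enriched and 1.85% to 6.59% for BBAA-enriched. The highest of both came without XX329 replicate 3, which gave 225 D-enriched and 128 BBAA-enriched calls, beside 3.95% of all probe sets. Without TAA10 replicate 2, 36 BBAA-enriched probe sets were called. Centring on the hybridisation controls left 21.4% of the D-enriched calls higher, in place of 45.1%, and 18.8% of the BBAA-enriched calls, in place of 52.6%.

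Probe sets that differed between the Aegilops tauschii lines TQ18 and 30A were read in the same way. TQ18 and 30A differed in 18.5% of probe sets, and 1066 were lower in TQ18 by 2-fold or more. Of these 163 (15.3%) were called between the hexaploids, 150 lower and 13 higher in XX329, against 2.14% of all probe sets. Another 888 were higher in TQ18 by as much, and 97 of them (10.9%) were called, 62 higher and 35 lower. With the control centring 35.8% of the calls in the second class were higher, in place of 63.9%. In the small overlap of 49 probe sets that were D-enriched and lower in TQ18 than in 30A, 21 (42.9%) were called, 19 of them lower in XX329. Of the 56 that were D-enriched and higher in TQ18 than in 30A, 7 (12.5%) were called, 6 of them higher. The share of all D-enriched probe sets was 9.83%. Without XX329 replicate 3 the lower class had 182 calls (17.1%, 159 lower) and the higher class 117 (13.2%, 79 higher), beside 3.95% of all probe sets. The small overlaps then had 20 calls (18 lower and 2 higher) and 9 calls (6 higher and 3 lower). The labels name no batch. The means of the hybridisation controls were 9.782 to 10.002 in the TQ18 arrays and 8.98 to 9.108 in the 30A arrays. Line and this offset cannot be told apart in choosing these probe sets. Arrays of Blackbird, Allo-960S7 and Allo-960 mix (8.641 to 9.112) lay with 30A, and the part of this in the classes and counts was not tested. XX329 (9.686 to 9.872) and TAA10 (9.461 to 9.566) lay closer to each other but did not overlap.

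**Figure D2:**
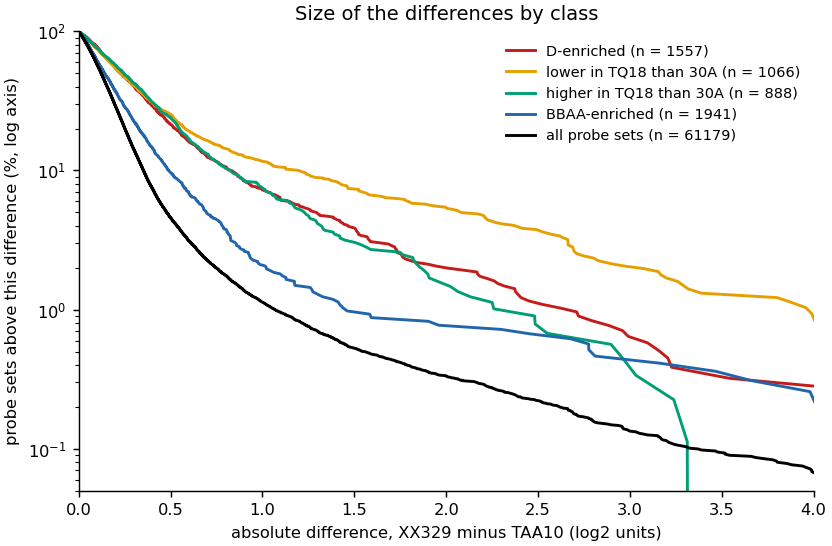
Percent of probe sets (vertical, log axis) whose absolute difference between XX329 and TAA10 exceeds the value on the horizontal axis (log2 units), for D-enriched, lower and higher in TQ18 than in 30A, BBAA-enriched, and all probe sets. The curves of the D-enriched and TQ18-differing classes run above that of the BBAA-enriched class up to about 2.5 log2 units, and that of the probe sets lower in TQ18 runs above the others from 1 log2 unit on.

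The large differences were next set beside the levels in the parents of XX329. A parent was counted with XX329 when its mean lay at least 1 log2 unit from that of TAA10 on the side of XX329. TAA10 arrays enter both sides of this count, so it describes the probe sets and is no test. The TQ18 arrays also enter the D-enriched and BBAA-enriched classes, so counts of these classes within it are no test either. The XX329 arrays that choose the large differences also enter the differences from XX329 mix. Values against the mix are thus no test for these probe sets. Over all probe sets, Extracted-tetra differed from TAA10 in 18.3%, XX329 mix from TAA10 in 3.78% and XX329 from XX329 mix in 1.88%, and the comparisons share their TAA10 or XX329 arrays.

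Most large falls were at probe sets that were high in TAA10 and low in both parents of XX329. Among the 143 probe sets at least 4-fold lower in XX329, both parents were low in 118 (82.5%). The count was 116 of 156 (74.4%) without XX329 replicate 3. The median level of these 118 was 3.73 in XX329, against 7.11 in TAA10. It was 3.58 in Extracted-tetra, 3.87 in TQ18 and 3.7 in XX329 mix, so XX329, its parents and their mix all lay under the median of all values. Their medians per array were 3.69 to 3.82 in XX329 and 7 to 7.24 in TAA10, a gap that follows from their choice by this difference. No member of the 118 had a gene symbol, and they came from 109 probe set clusters by ID, so some may report the same transcript.

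The lines outside the XX329 family divided these 118. In 30A, 46 lay within 1 log2 unit of TAA10 or above it and 65 within 1 unit of XX329 or below it. Among the tetraploids only 2 (TTR13), 8 (TD265) and 4 (Blackbird) reached TAA10 to within 1 unit. Allo-960S7, whose D genome came from 30A, reached it in 31 and so did Allo-960 mix. The level of TAA10 was thus reached in 30A by 46 of these probe sets, and in any single natural tetraploid by at most 8.

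The probe sets are named here by their IDs, since the platform annotation pairs them with no gene. Ta.22403.1.S1_at had 3.81, 4.28 and 4.3 log2 units in the XX329 arrays, against 11.37, 11.59 and 11.34 in the TAA10 arrays (difference -7.31, SE 0.12, adjusted p = 2.15e-27 in limma). TaAffx.104814.1.S1_at had 2.97, 2.62 and 2.81 in XX329, against 9.78, 9.9 and 9.9 in TAA10 (difference -7.06, SE 0.13, adjusted p = 2.6e-26 in limma). Both were high in the TAA10 arrays alone: in every one of the other 10 groups the mean of Ta.22403.1.S1_at was at most 4.28 and that of TaAffx.104814.1.S1_at at most 3.06.

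Ta.15177.1.S1_x_at shows the other pattern. It was chosen after its values were seen, as the largest fall among those at the TAA10 level in 30A. It had 7.14, 6.68 and 7.11 in XX329, against 13.11, 13.07 and 12.68 in TAA10 (difference -5.98, SE 0.17, adjusted p = 3.06e-21 in limma). Its mean was 7.81 in TQ18 and 13.27 in 30A, and 11.61 in Allo-960S7. The tetraploids had 6.48 to 6.67, and Extracted-tetra 6.66. The high lines were thus TAA10, 30A and the hexaploid and mix made from 30A, and the low ones XX329, TQ18 and every tetraploid. As a probe set of the x type, its probes can also bind unlike transcripts.

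In 19 of the 143, TQ18 was not low and Extracted-tetra was. Their median was 5.13 in XX329, against 7.81 in TAA10, with 7.98 in TQ18, 3.57 in Extracted-tetra and 5.82 in XX329 mix. XX329 thus lay between its parents and below TAA10. Against its mix, 4 of the 19 were called, beside 1.88% of all probe sets, and the median difference XX329 minus XX329 mix was -0.35. The 19 were chosen by the same low XX329 arrays, so these values are no test. Of the 19, 8 were D-enriched. The largest was Ta.521.1.S1_at, with 4.36, 5.9 and 4.78 in XX329, against 8.19, 8.44 and 8.03 in TAA10 (difference -3.21, SE 0.56, adjusted p = 0.000423 in limma). In TQ18 it had 10.1, 7.66 and 8.1, and in XX329 mix 7.13, 8.14 and 4.96, a wide spread in both.

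In the last 6, only TQ18 was low. Their median was 4.02 in XX329, against 6.45 in TAA10, with 6.1 in Extracted-tetra and 5.57 in XX329 mix. Against the mix 3 of the 6 were called, again through the XX329 arrays that chose them. One was the sole large fall with a gene symbol, LOC543313, which the annotation gives by number only. It averaged 3.29 ± 0.28 in XX329 and 5.56 ± 0.77 in TAA10 (SD, n = 3 each), with 6.13 in Extracted-tetra and 3.68 in TQ18. Its difference from TAA10 was -2.27 (adjusted p = 0.00786 in limma) and from XX329 mix -2.33 (adjusted p = 0.0101). The same XX329 arrays enter both differences.

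**Figure D3:**
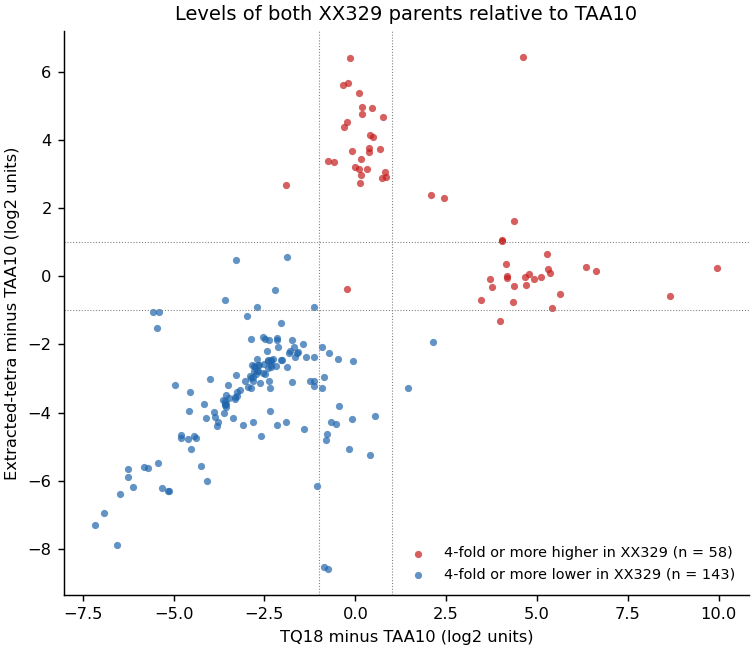
Mean level of TQ18 (horizontal) and of Extracted-tetra (vertical) relative to TAA10, in log2 units, for the probe sets at least 4-fold higher (58, red) or lower (143, blue) in XX329 than in TAA10. Dotted lines mark 1 log2 unit; 118 of the lower probe sets lie beyond the line in both parents, and the higher ones fall mostly into an arm along the Extracted-tetra axis (28) and an arm along the TQ18 axis (23).

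The large rises divided between the parents. Of the 58 probe sets at least 4-fold higher in XX329, 28 (48.3%) were high in Extracted-tetra only, 23 (39.7%) in TQ18 only, 6 in both and 1 in neither. Without XX329 replicate 3, 40 of 80 were high in Extracted-tetra only, 29 in TQ18 only, 7 in both and 4 in neither. In 32 of the 58, the TAA10 mean lay under the median of all values.

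The rises shared with Extracted-tetra were mostly at probe sets that were high in the natural tetraploids as well and low in TAA10. Their median was 7.35 in XX329, against 3.95 in TAA10, with 7.84 in Extracted-tetra and 4.16 in TQ18. Of the 28, 25 lay within 1 log2 unit of XX329 or above it in TTR13, 23 in TD265 and 23 in Blackbird, and 15 were BBAA-enriched. None was D-enriched. The largest, Ta.13241.1.S1_at, had 8.62, 9.14 and 9.94 in XX329, against 3.16, 3.63 and 3.87 in TAA10 (difference 5.68, SE 0.2, adjusted p = 5.65e-19 in limma). Its mean was 9.97 in Extracted-tetra, 9.7 in TTR13, 10.13 in TD265 and 10.08 in Blackbird, while TQ18 (3.42) and 30A (3.71) were as low as TAA10.

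The rises shared with TQ18 were mostly at probe sets that were high in both Aegilops tauschii lines and low in TAA10. Their median was 7.04 in XX329, against 4.15 in TAA10, with 9.1 in TQ18 and 3.94 in Extracted-tetra. Of the 23, 17 were D-enriched, a class that the same TQ18 arrays help to define. In 21 of the 23 the 30A mean also lay within 1 log2 unit of XX329 or above it. In 14 of the 23, the TAA10 mean lay under the median of all values. Ta.30807.3.S1_at had 13.73, 13.18 and 13.08 in XX329, against 3.52, 4.05 and 3.38 in TAA10 (difference 9.68, SE 0.24, adjusted p = 1.15e-22 in limma). Ta.3987.1.S1_x_at had 11.47, 11.22 and 11.19 in XX329, against 3.18, 3.78 and 4.24 in TAA10 (difference 7.56, SE 0.18, adjusted p = 1.76e-23 in limma). Their means were 13.62 and 12.4 in TQ18 and 13.53 and 12.42 in 30A. The mean of Ta.30807.3.S1_at was at most 5.12 in the tetraploids, Extracted-tetra included, and that of Ta.3987.1.S1_x_at at most 3.51.

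Of the 6 shared with both parents, the largest was Ta.14965.1.S1_at, with 10.9, 10.93 and 10.91 in XX329, against 5.27, 4.65 and 5.09 in TAA10 (difference 5.91, SE 0.16, adjusted p = 6.73e-22 in limma). Its means were 11.44 in Extracted-tetra, 9.61 in TQ18 and 10.86 to 11.31 in the natural tetraploids, and 4.83 in 30A. The 1 probe set high in neither parent, Ta.6219.1.S1_at, had 8.56, 8.73 and 8.14 in XX329, against 6.07, 6.33 and 6.42 in TAA10. Its mean was 5.89 in Extracted-tetra, 6.04 in TQ18 and 6.03 in XX329 mix, and the difference XX329 minus XX329 mix was 2.45. It was thus high in the hexaploid and low in both parents and their mixed RNA, and Allo-960S7 (8.56) and the natural tetraploids (8.2 to 9.62) were high as well.

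**Figure D4:**
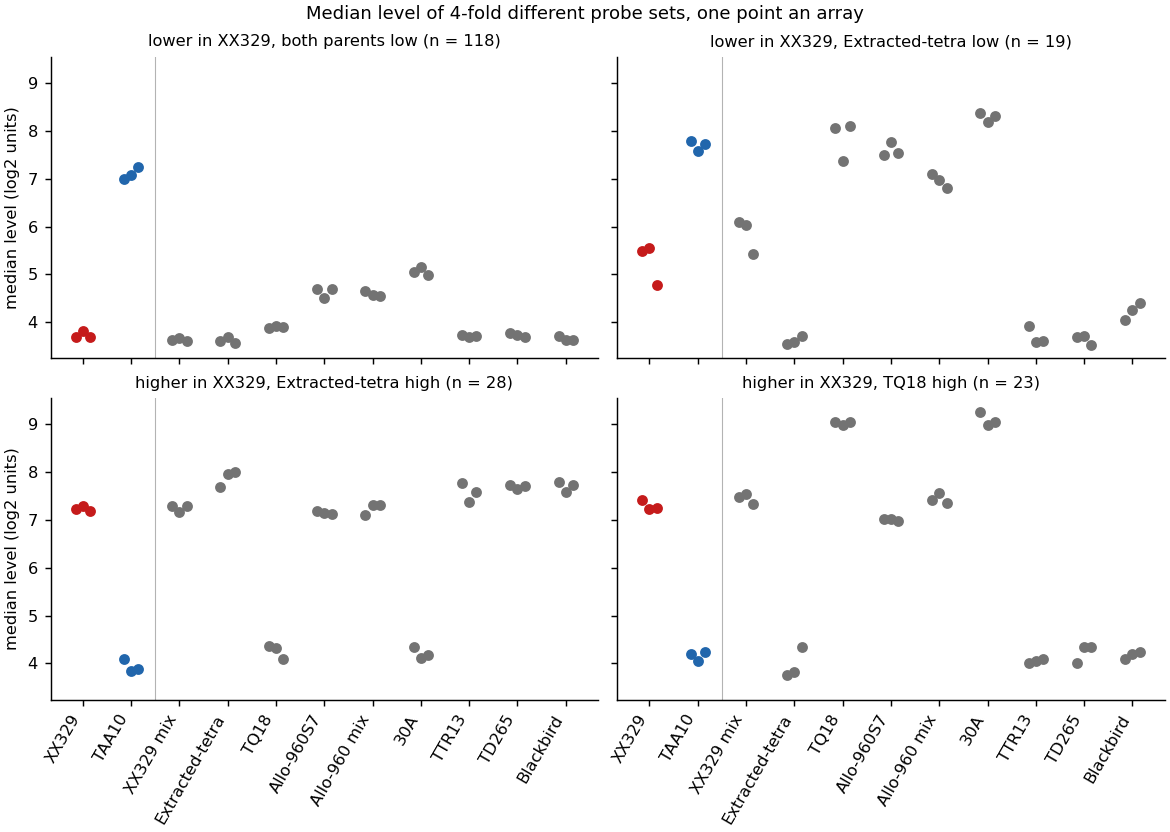
Median level (vertical, log2 units) of the larger classes of 4-fold different probe sets (118, 28, 23 and 19 members) in every array. There are 3 points for each of 11 groups, with XX329 in red and TAA10 in blue. Classes of 6 or fewer are not drawn. XX329 sits with both of its parents where both were low (118 probe sets), with Extracted-tetra and the natural tetraploids in the 28 high in Extracted-tetra, and nearer TQ18 and 30A in the 23 high in TQ18.

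At 2-fold or more the same count gave a different division. Of 392 lower probe sets, both parents were low in 187 (47.7%), Extracted-tetra only in 125 (31.9%), TQ18 only in 59 (15.1%) and neither in 21 (5.36%). Of 178 higher ones, TQ18 alone was high in 94 (52.8%), Extracted-tetra alone in 56 (31.5%), both in 14 and neither in 14. Without XX329 replicate 3, neither parent was low in 108 of 523 lower probe sets and neither was high in 67 of 326 higher ones, and 186 of the 523 were low in both. The transcripts low in both parents thus made up a smaller share of the falls at 2-fold than at 4-fold. The parental distance was 1 log2 unit in both counts. That is the whole of a 2-fold fall but only part of a 4-fold one, which by itself lowers the share at 2-fold. With a distance of 0.5 log2 units, 244 of the 392 lower probe sets (62.2%) were low in both parents, against 82.5% at 4-fold with 1 log2 unit.

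Genes with a name could be followed for a small part of the array. Of 61179 probe sets, 1273 had a gene symbol, and 33 of these (2.59%) were called, near the 2.14% of all. It was 85 (6.68%), beside 3.95% of all, without XX329 replicate 3. For 102 genes the annotation, or the gene record it points to, gives a symbol or alias beyond a number. Of these 4 (3.92%) were called, 3 higher and 1 lower, and their median difference was 0.03. For 94 of the 102 the 95% interval of the difference lay within 2-fold. Without XX329 replicate 3, 7 were called (6.86%), among them the same 4.

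In the cytoskeleton list, 1 of 7 genes rose. The beta-tubulin gene tubb2 (LOC543258), which encodes a building block of microtubules, had 11.34, 11.54 and 11.36 in XX329, against 10.3, 10.31 and 10.75 in TAA10. It was 1.95-fold higher (difference 0.96, SE 0.21, adjusted p = 0.00802 in limma), and the arrays of the lines did not overlap. Without TAA10 replicate 1 or 2 the adjusted p was 0.0597 and 0.0562. Its mean in XX329 mix was 10.81, and the difference from the mix, 0.60 (adjusted p = 0.171), did not pass. The other beta-tubulins tubb1, tubb3, Tubb4 and Tubb5 differed by 0.37, 0.16, 0.02 and 0.15, the alpha-tubulin TUBA by 0.15 at a level under the median of all values in both lines, and the profilin PRO1, which binds actin monomers, by -0.09, and none passed. A brighter TUBA probe set, with shared probes, averaged 11.14 in XX329 and 11.22 in TAA10, a difference of -0.08.

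In the antioxidant and glutathione list, 1 of 6 rose. GSTZ1 (LOC543412), a zeta-class glutathione S-transferase, had 9.47, 9.62 and 9.35 in XX329, against 8.98, 9.06 and 8.96 in TAA10, without overlap (difference 0.48, SE 0.11, adjusted p = 0.00856 in limma). Its mean of 9.48 in XX329 was close to that of the mix (9.5) and lay between Extracted-tetra (9.29) and TQ18 (10.09). Its 2 other probe sets, at 0.10 and -0.24, did not pass, and the call was lost without XX329 replicate 2 (adjusted p = 0.0723). The catalase CAT1, which breaks down hydrogen peroxide, was at 13.46 ± 0.17 in XX329 and 13.72 ± 0.037 in TAA10 (SD, n = 3 each; adjusted p = 0.12). The glyoxalase lgul (0.16), the thioredoxin Trx-M (0.11), Prx1 (0.21) and PER1 (0.05) did not pass either. Without XX329 replicate 3, CAT1 passed at -0.32 (adjusted p = 0.0369).

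In the methyl transfer list, 1 of 4 fell. SAHH splits S-adenosylhomocysteine, the product left by methyl transfer from S-adenosylmethionine. It had 11, 12.47 and 13.41 in XX329, against 13.34, 13.35 and 13.56 in TAA10 (difference -1.13, SE 0.3, adjusted p = 0.0392 in limma). One XX329 array reached the level of TAA10, so the groups overlapped. The mean of SAHH was 13.28 in Extracted-tetra, 12.53 in TQ18 and 12.99 in XX329 mix. Its difference from the mix, -0.7 (adjusted p = 0.308 in limma), did not pass, and TQ18 was itself lower than TAA10 by -0.89 (adjusted p = 0.0191). The fall was largest in XX329 replicate 1, without which the difference was -0.48 (adjusted p = 0.327), and without XX329 replicate 3 it was -1.69 (adjusted p = 2.86e-05). Removing XX329 replicate 2 (adjusted p = 0.0622) or any single TAA10 array (0.0951 to 0.122) also ended the call. The other SAHH probe set differed by -1.07 (adjusted p = 0.125). PEAMT1 (LOC543067), a phosphoethanolamine methyltransferase of choline synthesis, had 13.03, 13.32 and 13.61 in XX329, against 13.59, 13.69 and 13.82 in TAA10. Its difference of -0.38 did not pass (adjusted p = 0.137), and without XX329 replicate 3 it passed at -0.52 (adjusted p = 0.0133). In XX329, replicate 1 was the lowest and replicate 3 the highest for both genes. PIMT (LOC543193), which repairs damaged aspartyl residues, and COMT1 (LOC543449), an O-methyltransferase of lignin synthesis, differed by -0.07 and 0.02.

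In the anther list, 1 of 2 rose. RAFTIN proteins are known from the anther tapetum, and leaf is not where they act. raftin1b (LOC543009) had 5.61, 5.3 and 5.32 in XX329, against 4.47, 5.02 and 4.96 in TAA10 (difference 0.59, SE 0.14, adjusted p = 0.015 in limma). Its mean was 6.45 in TQ18 and 4.53 in Extracted-tetra, with XX329 mix at 5.22. Its probe set is of the s type, whose probes match more than 1 transcript. Its other probe set (-0.16) and raftin1a (-0.10) did not pass, and raftin1a lay under the median of all values. The call was lost without XX329 replicate 1 (adjusted p = 0.12) or TAA10 replicate 1 (adjusted p = 0.193).

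**Figure D5:**
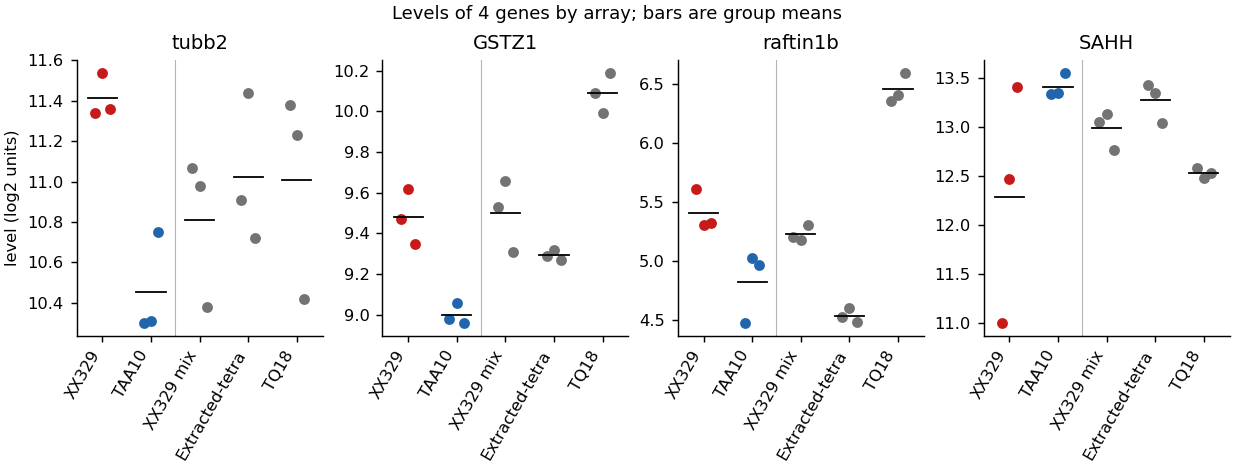
Levels (vertical, log2 units; each panel has its own range) of tubb2, GSTZ1, raftin1b and SAHH in each array of XX329 (red), TAA10 (blue), XX329 mix, Extracted-tetra and TQ18 (grey), with bars at group means. The XX329 arrays lie above those of TAA10 for tubb2, GSTZ1 and raftin1b, and spread from 11 to 13.41 for SAHH.

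The photosynthesis genes of the leaf were high and close between the lines. PsbO and PsbP, of the oxygen-evolving complex, and petC, the Rieske protein of the cytochrome b6f complex, differed by -0.04, -0.03 and 0.02, at mean levels from 14.35 to 14.43 in XX329. In the carbon fixation list the phosphoribulokinase PRK and the fructose-bisphosphatase FBP differed by 0.01 and 0.08. The gene of the Rubisco large subunit, rbcl, had 9.43, 8.72 and 8.94 in XX329, against 8.37, 8.56 and 8.01 in TAA10. Its difference of 0.71 (SE 0.25, adjusted p = 0.185) did not pass although the arrays did not overlap, as they did not for 13.5% of all probe sets. Of its 27 other probe sets 1 was called, Ta.3807.1.A1_at, at -1.12, with XX329 (3.37) under the median of all values and TAA10 (4.49) just above it. The 2 brightest, both of the x type, averaged 14.99 and 15.03 in XX329, against 14.99 and 15 in TAA10, and differed by 0.00 and 0.02. The large subunit of Rubisco is encoded in the chloroplast genome.

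No member passed in 18 of the 22 lists. Over all lists 4 of 93 genes were called (4.3%), beside 2.14% of all probe sets. The lists held few genes, so a list without a call says little about its pathway. The starch, sucrose and fructan list (7 genes) ran from -0.22 to 0.19 and the translation list (8 genes) from -0.26 to 0.20. The histone and chromatin list (6 genes) ran from -0.06 to 0.30, although a second probe set of H2A-3 was called at -1.10, at a level under the median of all values in both lines. The widest were the inhibitor list (8 genes, -0.27 to 0.68), where ATI (LOC543286) reached 0.68 (adjusted p = 0.0548) at a level under the median of all values in both lines, and the defence list (8 genes, -0.32 to 0.64). For GLU1A, a beta-glucosidase, the 95% interval of the difference ran from -1.09 to 2.36, so these arrays leave room for a change of 2-fold in either direction. Of the gibberellin 20-oxidases, GA20ox1d was at 0.58 (adjusted p = 0.164), GA20ox1b at 0.13 and GA20ox1a at 0.01. The TATA-binding protein gene TBP1 was at 0.38 (adjusted p = 0.236), and at 0.55 (adjusted p = 0.0257) without XX329 replicate 3.

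Markers of grain, among them gliadins, a glutenin and serpins, lay under the median of all values in both lines for 11 of 12 genes. The exception was ALP, with a mean of 9.75 in TAA10. In XX329 it had 9.6 in replicate 3 and a mean of 10.03 without that array. Its other probe sets lay under the median of all values in both lines. Another probe set of the glutenin GluD3-4, of the x type, averaged 6.86 in XX329 and 6.89 in TAA10. The mean of the 12 per array was 3.86 to 3.96 in XX329 and 3.88 to 3.92 in TAA10. The nearest to a call was GAG56D, a gamma-gliadin gene, at -0.43 (adjusted p = 0.0804).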

How the data were processed

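Leaf RNA was hybridised to Affymetrix wheat arrays. The deposited values are log2 summaries, and per the submitters' processing notes RMA and limma were used, with no version or setting given. Of 61290 probe sets, 111 controls were left out, and 61179 were tested in R 4.3.3 by limma 3.58.1 (eBayes on cell means of all 33 arrays, 22 residual and 28.51 total degrees of freedom, lmFit), with Benjamini-Hochberg adjustment over all probe sets. Arrays have no read depth; their number limits the precision. Groups came from the sample titles. Genes were named through the platform annotation (1273 probe sets, 771 genes, 770 of them matched by Entrez ID in the RefSeq table of IWGSC CS RefSeq v2.1, from which only names were taken); 59906 probe sets had no symbol. Each of 102 named genes was read from the probe set that was brightest on average across the 33 arrays, passing over the x type where possible. Named are, of the called genes with no overlap between arrays, up to 15 in each direction, the called members of 22 gene lists (up to 2 each), and of probe sets without a gene the 2 highest and 2 lowest differences; further IDs are the largest of their class, and these, LOC543313 and other members were named after their values were seen. Classes, lists and members were chosen with earlier results of these data known. The fit was tested on simulated data. Same-numbered arrays of XX329 and TAA10 did not deviate together (r = -0.112, -0.002 and -0.253), so they were not paired. No 2 arrays were identical. Alternatives were other centring, normalization, filters, variance models and array weights, a fit of the 6 arrays alone, leaving out the 12 Allo-960 family arrays (Allo-960S7, its mix and both parents), an actin covariate, a replicate block and each array left out.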

Additional observations from a re-analysis of the deposited data

How the results depend on the processing

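The count of 1311 called probe sets was 570 with a 2-fold minimum, 539 in a fit limited to the 6 arrays and 2079 with centring on the hybridisation controls. The D-enriched count of 153 was 98 (6.29%, beside 0.932% of all probe sets) with the 2-fold minimum. It was 90 (5.78%, beside 0.881% of all) in the limited fit. For BBAA-enriched probe sets, 57 in all, these gave 30 (1.55%) and 27 (1.39%). Control centring gave 96 (4.95%, beside 3.4% of all). For probe sets higher in TQ18 than in 30A, 97 in all, the 2-fold minimum gave 58 (6.53%) and the limited fit 56 (6.31%). Leaving out single arrays gave 974 to 2419 calls in all, 36 to 128 BBAA-enriched and 54 to 89 at 4-fold or more higher. With the replicate block, an unpaired number here, 1429 were called. The probe sets lower in TQ18 than in 30A (112 to 211 called) and those 4-fold or more lower in XX329 (120 to 179) stayed within 1.5 times of their counts in every alternative run. The causes were not tested, beyond fewer arrays in the limited fit. Control centring ended the calls of tubb2 (0.70), GSTZ1 (0.22) and raftin1b (0.33), and the limited fit those of GSTZ1, raftin1b and SAHH. The 4 called genes and the probe sets given by ID kept their direction in every alternative run. Of the 102 named genes, others that were not called turned sign, 17 without XX329 replicate 3 (Prx1, lgul, Tubb5, GA20ox1b, PIMT and COMT1 among them) and 48 with control centring. The SAHH call was also lost with trend and robust settings and without the 12 arrays. With parental distances of 0.5 and 2 log2 units, added after the data were seen, 131 and 89 of the 143 were low in both parents.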

Other observations

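Among genes that the annotation gives by number only, chosen here after their values were seen, LOC542989 was higher in XX329 at all 3 of its probe sets, by 1.42, 1.29 and 1.16 log2 units. Its probe set Ta.28351.1.S1_at averaged 10.49 ± 0.45 in XX329 and 9.06 ± 0.35 in TAA10 (SD, n = 3 each; adjusted p = 0.000914 in limma), with 10.42 in Extracted-tetra and 7.91 in TQ18. LOC543008, a BBAA-enriched probe set, averaged 9.17 ± 0.28 in XX329 and 8.05 ± 0.22 in TAA10 (SD, n = 3 each; adjusted p = 0.000243), with 10.03 in Extracted-tetra. Both were thus nearer to Extracted-tetra in XX329 than in TAA10. The 3 probe sets of LOC542989 come from a single cluster by ID, so they may report the same transcript. LOC100049056, D-enriched, averaged 6.01 ± 1.8 in XX329 and 3.56 ± 0.65 in TAA10 (SD, n = 3 each; adjusted p = 0.0024), with 8.23 in TQ18 and 3.54 in Extracted-tetra. LOC543089 was lower at both of its probe sets, by -0.68 and -0.70, with 10.51 ± 0.047 in XX329 and 11.19 ± 0.016 in TAA10 at Ta.19248.1.S1_at (SD, n = 3 each; adjusted p = 0.0044). Extracted-tetra had 8.39 there and TQ18 11.25. Both probe sets of LOC543089 share a cluster by ID as well. LOC606349 was higher in XX329 (6.39 ± 0.44) than in TAA10 (5.15 ± 0.1; SD, n = 3 each), and higher than in XX329 mix by 0.99 (adjusted p = 0.0151).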
